A study of Mus musculus with 24 samples.

Results

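The immediate early genes examined here were Fos, Fosb, Jun, Junb, Jund, Egr1, Ier2, Dusp1, Zfp36 and Nr4a1. They were matched by the gene symbol in the deposited transcript identifiers, and all 10 were found among 55401 genes. The series holds 24 bulk RNA-seq libraries from male C57BL/6 mice aged 11 weeks, in 6 groups of 4. Mice received propyzamide, a herbicide that blocks microtubule assembly in plants, or an empty vehicle. For each treatment, libraries came from unstimulated (naive) mice and from mice 3 h or 24 h after anti-CD3, an antibody to the T cell receptor complex. The groups were propyzamide unstimulated, propyzamide 3 h, propyzamide 24 h, vehicle unstimulated, vehicle 3 h and vehicle 24 h. No mutant allele or transgene is named. The tissue, any cell sort, the doses, the route and the number of mice behind a library are not stated in the labels. P-values therefore measure the spread between these libraries, which may be technical.

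Immediate early genes are transcribed within minutes of a stimulus, from factors already present in the cell and without new protein synthesis. Antigen receptor signalling reaches them through MAP kinases and calcium, which act on serum response factor with its Elk partners, on CREB and on related factors. Their messages are short-lived, in part because AU-rich elements in the 3′ UTR recruit proteins that speed decay, so that a burst usually ends within hours. The genes are also induced by handling and by enzymatic release of cells from tissue. Fos and Fosb encode Fos proteins and Jun, Junb and Jund encode Jun proteins, which pair to form the transcription factor AP-1. Egr1 encodes a zinc finger transcription factor, and Nr4a1 encodes the orphan nuclear receptor Nur77, widely used as a reporter of T cell receptor signalling. Ier2 encodes a nuclear protein. Dusp1 encodes a phosphatase that switches off MAP kinases. Zfp36 encodes tristetraprolin, which binds AU-rich elements and promotes decay of the message.

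The genes lie apart in the genome, on 7 chromosomes in the GENCODE M21 annotation of GRCm38. Fos is at chr12:85473890-85477273, Jun at chr4:95049034-95052222, Junb at chr8:84974484-84978718 and Nr4a1 at chr15:101254269-101274795. Dusp1 is on chromosome 17, and Fosb and Zfp36 are on chromosome 7. Junb, Jund and Ier2 share chromosome 8, where Junb and Ier2 are 311632 bases apart. Jun, Junb, Jund and Ier2 have no intron, so counts of these 4 genes cannot separate spliced message from unspliced or genomic sequence.

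Promoter sequence was read from RefSeq windows of GRCm38.p6, each running from 250 bases before to 50 bases after a RefSeq start. Of the 10 genes 8 had a window (Egr1 and Ier2 had none). A RefSeq start need not be the start of the GENCODE gene. The windows of Nr4a1, Dusp1 and Zfp36 lie inside the GENCODE genes, and that of Jund lies upstream of its GENCODE gene. The short motif TGACG, the short form of the cAMP response element bound by CREB and ATF proteins, was searched on both strands, where the reverse strand reads CGTCA. It was present in 5 of 8 windows (Fos, Fosb, Junb, Dusp1 and Nr4a1) and in 20.8% of all 32851 windows. The windows of 4 of these genes are printed because their counts carry the comparisons below. Capitals mark TGACG or CGTCA and, in Fos and Junb, TATAAA. The windows are chr12:85473640-85473939 on the plus strand for Fos, chr8:84978699-84978998 on the minus strand for Junb, chr15:101266596-101266895 on the plus strand for Nr4a1 and chr17:26508423-26508722 on the minus strand for Dusp1.
Fos promoter: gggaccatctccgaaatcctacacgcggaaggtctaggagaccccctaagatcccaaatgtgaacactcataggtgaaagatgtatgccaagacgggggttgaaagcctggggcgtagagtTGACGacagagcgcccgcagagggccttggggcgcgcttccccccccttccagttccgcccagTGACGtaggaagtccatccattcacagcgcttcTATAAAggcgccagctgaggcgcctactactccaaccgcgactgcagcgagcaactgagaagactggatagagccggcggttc
Junb promoter: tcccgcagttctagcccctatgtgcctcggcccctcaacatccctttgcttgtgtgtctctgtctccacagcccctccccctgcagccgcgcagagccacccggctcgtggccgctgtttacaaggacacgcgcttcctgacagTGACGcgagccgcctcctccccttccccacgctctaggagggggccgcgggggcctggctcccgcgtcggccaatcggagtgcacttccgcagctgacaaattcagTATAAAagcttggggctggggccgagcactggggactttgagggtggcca
Nr4a1 promoter: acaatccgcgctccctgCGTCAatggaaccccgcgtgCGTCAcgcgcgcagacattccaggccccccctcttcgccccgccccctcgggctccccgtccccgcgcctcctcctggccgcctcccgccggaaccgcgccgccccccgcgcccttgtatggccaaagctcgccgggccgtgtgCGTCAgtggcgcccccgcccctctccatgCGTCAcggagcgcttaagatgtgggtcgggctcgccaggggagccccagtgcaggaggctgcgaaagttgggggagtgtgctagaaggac
Dusp1 promoter: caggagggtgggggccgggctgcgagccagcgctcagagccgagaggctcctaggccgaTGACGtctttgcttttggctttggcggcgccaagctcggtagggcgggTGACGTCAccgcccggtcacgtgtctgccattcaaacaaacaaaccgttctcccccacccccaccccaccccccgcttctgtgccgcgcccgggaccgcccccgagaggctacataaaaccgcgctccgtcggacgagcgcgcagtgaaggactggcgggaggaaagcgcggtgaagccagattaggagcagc

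The Nr4a1 window held 4 such sites, starting 233, 213, 69 and 40 bases before the RefSeq start. The Fos window held 2, at 129 and 66 bases before the start, and TATAAA at 33 bases before it. In the Dusp1 window the sites at 143 and 140 bases before the start overlap and together spell the whole 8-base element, which occurred in 1.79% of all windows and in no other of the 8. TATAAA occurred in 13.6% of all windows and in the Fos and Junb windows of the 8. In the Junb window it began on the RefSeq start itself, not upstream of it. The CArG box of serum response factor occurred in 1.63% of all windows and, of the 8, in that of Zfp36, at 58 bases before the start. The AP-1 motif TGANTCA occurred in 7.81% of all windows and in none of the 8. These matches describe letters in a short window and do not show that a factor is bound.

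The 3′ UTRs carried the pentamer ATTTA, the core of the AU-rich element that tristetraprolin binds, read as AUUUA in the RNA. Over the 2753 tested genes with an annotated 3′ UTR the median was 1.53 pentamers per kb, and 7 of the 9 tested immediate early genes lay above it. Dusp1 had 5.8 per kb, Nr4a1 5.52, Fos 4.91, Junb 4.12, Zfp36 3.88, Jun 3.24 and Egr1 1.64. Fosb with 0.434 per kb and Ier2 with 0 lay below the median. The pentamer occurred at least once in 72.2% of the 2753 genes. One stretch of 30 bases is printed for each of 6 genes, with the pentamers in capitals. Each stretch was chosen to hold as many pentamers as possible, so their presence in it is no result. Within these stretches the pentamers overlap in Fos and Dusp1 and are apart in Jun, Zfp36 and Nr4a1.
Fos 3′ UTR: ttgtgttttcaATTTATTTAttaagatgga
Jun 3′ UTR: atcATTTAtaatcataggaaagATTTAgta
Junb 3′ UTR: aatatatttgtgtATTTAacagggagggga
Nr4a1 3′ UTR: gATTTAtatttgtgtattttcctggATTTA
Dusp1 3′ UTR: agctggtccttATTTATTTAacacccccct
Zfp36 3′ UTR: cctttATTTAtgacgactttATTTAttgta

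Libraries were shallow in known genes, which limits every count below. Estimated counts totalled 438750 to 2072033 in 23 libraries and 9812458 in propyzamide 24 h replicate 3, but named protein-coding genes held only 17959 to 161034 in the 23 and 2941236 in the deepest. The 10 genes together had 14 counts in propyzamide 3 h replicate 3, the shallowest library, 116 to 1147 in 22 libraries and 19359 in the deepest. Per 1000 counts of named protein-coding genes this was 0.78 in the shallowest library, against 2.67 to 7.91 in the other 23. The shallowest library thus stood apart in composition as well as depth, and the changes with anti-CD3 at 3 h, and from there to 24 h, are given with and without it. The deepest library differed in composition too. The gene models Gm10800 and Gm10801 held 25.9% of its counts, against 49.4% to 59.3% in the other 23 libraries. Markers of T cells, B cells, plasma cells, macrophages, granulocytes, intestinal epithelium and stroma were all detected, and no listed marker was at 0 in all libraries. The libraries are therefore mixtures, in which fewer cells of a type and less RNA per cell cannot be told apart. The libraries of both unstimulated groups and of vehicle 3 h carry one i5 index and those of propyzamide 3 h, propyzamide 24 h and vehicle 24 h another. Whether the index stands for a batch is not stated.

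Levels were compared between genes as TPM, which is per length. Junb was the highest of the 10 genes in 20 of 24 libraries, with a median of 27.1 TPM (lowest 0.744, highest 157). These extremes came from the shallowest and the deepest library, and the other 22 libraries ran from 7.95 to 45.3 TPM. Fos followed with a median of 13.4 TPM, Dusp1 with 11.1, Nr4a1 with 9.93, Jun with 5.08, Egr1 with 4.19, Ier2 with 3.73, Zfp36 with 3.17, Fosb with 0.853 and Jund with 0. Junb was above 99.2% of named protein-coding genes in the median library, and Fos above 98.5% of them. No filter on low counts was applied to these genes, and Fosb with its 0.853 TPM was above 70.3% of them. A high rank here therefore does not need a high level. Not every step in this order was stable. Dusp1 exceeded Nr4a1 in 15 of 24 libraries and Egr1 exceeded Ier2 in 13, so neither pair was separated, and Ier2 exceeded Zfp36 in 16. The firmest steps were Zfp36 above Fosb in 24 of 24 libraries and Nr4a1 above Jun in 23. Jund had 64 counts, spread over 10 of 24 libraries, and 21 of them lay outside the deepest library. It did not pass the filter on low counts and was not tested. Its counts are uncertain for a further reason, since 50.1% of its stretches of 31 bases also occur in the gene model Gm11175.

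**Figure D1:**
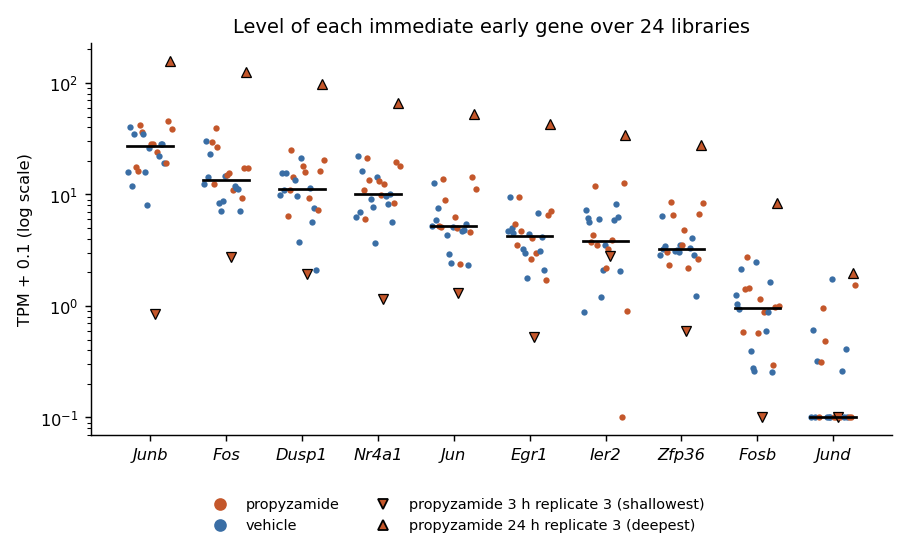
TPM of each immediate early gene in 24 libraries, on a log scale after adding 0.1, with genes ordered by their median (black bar), propyzamide in orange, vehicle in blue and the shallowest and deepest libraries as triangles. Junb leads with a median of 27.1 TPM and Jund, with a median of 0, is last.

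Counts of the other genes came mostly from protein-coding transcripts. Jun, Junb and Ier2 have 1 transcript each in the files. Outside the deepest library, Fos-201 took 98.1% of the Fos counts and Nr4a1-201 took 96.8% of the Nr4a1 counts. Zfp36 was split between Zfp36-201 with 73.7% and Zfp36-202 with 26.3%. Dusp1 had 88.3% in Dusp1-202 and 5.55% and 5.04% in its retained-intron transcripts. Jun overlaps the antisense gene Junos over 6.39% of its 31-base stretches, and SMART-seq2 does not mark strand, so reads there cannot be told apart. Junos had 43 counts in all 24 libraries beside 3532 for Jun. Zfp36 shares 6.57% of its 31-base stretches with at least 5 other genes, so a part of its counts is uncertain. No 31-base stretch was shared between members, so the 5 AP-1 genes did not trade counts with each other.

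In several groups most of the tested genes were highest or lowest in the same library. Of the 9 tested genes, propyzamide unstimulated replicate 3 had the highest level in its group for 9, vehicle 3 h replicate 4 for 8, vehicle 24 h replicate 1 for 7 and vehicle unstimulated replicate 2 for 6. Propyzamide 24 h replicate 1 was the lowest of its group for 9 of 9 and propyzamide 3 h replicate 3 for 8 of 9. The highest library was split in the other groups. Propyzamide 3 h replicate 2 was highest for 6 and replicate 1 for 3. Propyzamide 24 h replicates 2, 3 and 4 were highest for 3, 4 and 2. How many of all genes tested followed the same libraries was not counted, so this is not shown to be particular to these genes. Summed over the 10 genes, TMM-normalized CPM ran from 28.8 in the shallowest library to 611 in propyzamide unstimulated replicate 3. The group means were 422 ± 141 CPM in propyzamide unstimulated, 238 ± 153 in propyzamide 3 h and 463 ± 151 in propyzamide 24 h libraries (SD, n = 4 each). The propyzamide 3 h mean includes the shallowest library, beside 349, 356 and 217 CPM in replicates 1, 2 and 4. With vehicle the group means were 364 ± 107 CPM unstimulated, 295 ± 146 at 3 h and 335 ± 84.7 at 24 h (SD, n = 4 each). Differences between group means were thus of the order of the spread within a group.

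**Figure D2:**
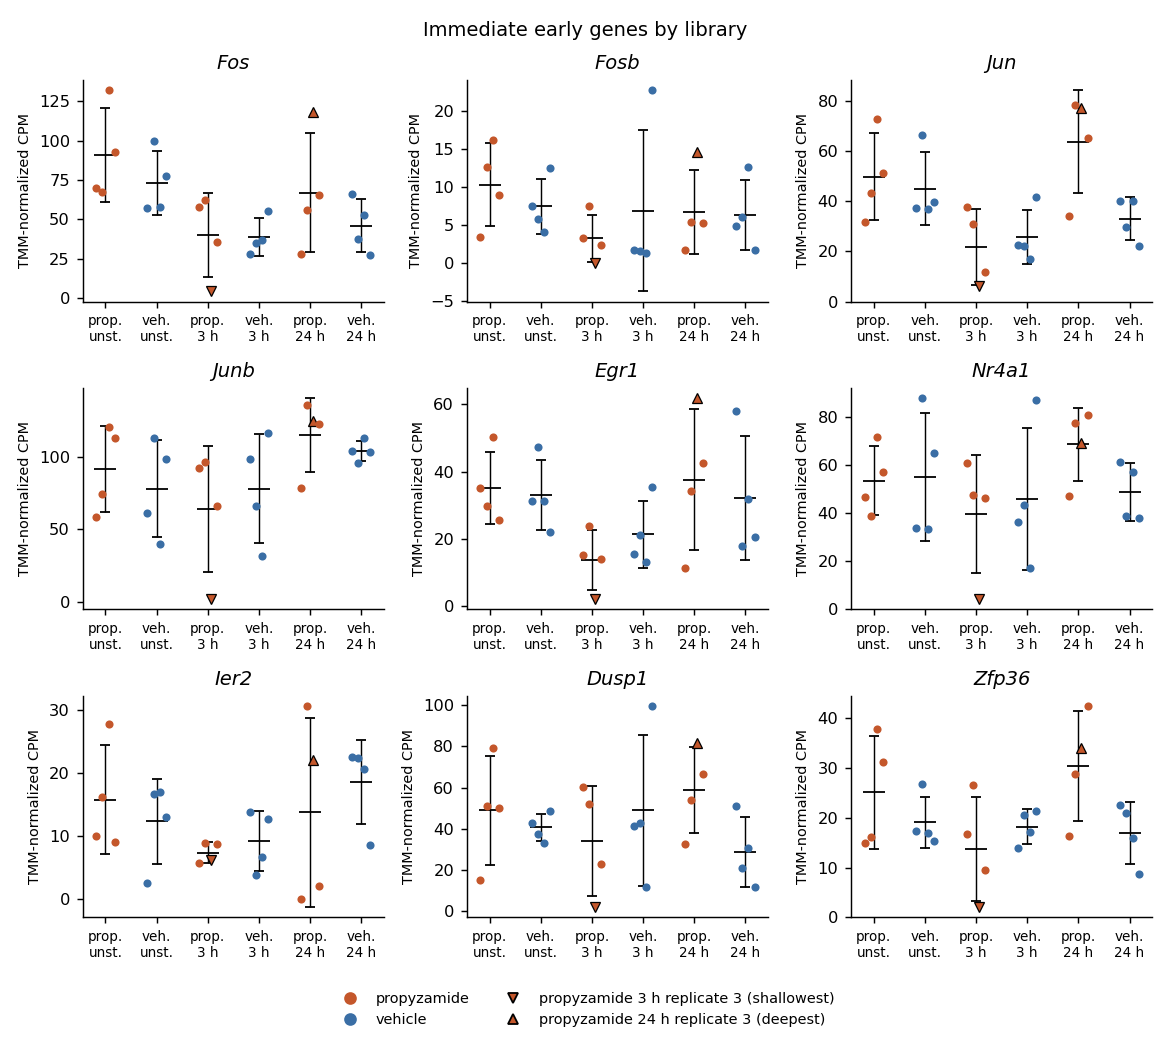
TMM-normalized CPM of the 9 tested genes in each library, by group (prop., propyzamide; veh., vehicle; unst., unstimulated), with the group mean and SD as bars (n = 4), propyzamide in orange and vehicle in blue. Fos lies lower in the 3 h groups than in the unstimulated groups of the same treatment, while Junb covers a similar range in most groups.

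At 3 h after anti-CD3 no immediate early gene was called, and the point estimates ran below the unstimulated level. Calls required an adjusted p (Benjamini-Hochberg) of at most 0.05 in edgeR's quasi-likelihood test over 3799 genes. In the mean over both treatments, 0 of 9 log2 fold changes were above 0, with a median of -0.82 against -0.05 over all genes tested and -0.19 over the protein-coding genes tested. Without the shallowest and deepest libraries 1 of 9 was above 0, and 2 of 9 when this was fitted on named protein-coding genes. The estimates furthest from 0 were those of Fos (-1.04 ± 0.33), Jun (-0.99 ± 0.30) and Egr1 (-0.97 ± 0.35, SE). Those of Junb (-0.25 ± 0.35), Nr4a1 (-0.33 ± 0.33) and Dusp1 (-0.12 ± 0.40) were near 0 within their errors.

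Fos, the partner of Jun proteins in AP-1, had 57.7, 62.3, 4.1 and 35.3 CPM in propyzamide 3 h libraries, against 70.1, 67.5, 132 and 92.7 CPM in propyzamide unstimulated libraries. It had 27.7, 35.0, 36.8 and 55.5 CPM in vehicle 3 h libraries, against 57.0, 99.9, 57.9 and 77.8 CPM in vehicle unstimulated libraries. In both treatments every 3 h library lay below every unstimulated library. Such separation downwards was seen for 5.11% of genes tested with propyzamide, where it also held for Egr1 and Ier2, and for 3.79% with vehicle, where Fos was the 1 member. The separation depended on the scaling. As CPM of named protein-coding counts the groups overlapped in both treatments: the highest 3 h library reached 1036 with propyzamide, against a lowest of 1020 in unstimulated libraries, and 881 with vehicle, against 868.5.

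Jun, a strong activator among the Jun proteins, had 37.7, 31.1, 6.17 and 11.8 CPM in propyzamide 3 h libraries, against 31.7, 43.2, 73.0 and 51.4 CPM in propyzamide unstimulated libraries. It had 22.5, 22.1, 17.1 and 41.6 CPM in vehicle 3 h libraries, against 37.1, 66.6, 36.9 and 39.7 CPM in vehicle unstimulated libraries. The groups overlapped in both treatments, through propyzamide 3 h replicate 1 and vehicle 3 h replicate 4. Egr1 had 15.2, 23.7, 2.06 and 14.1 CPM in propyzamide 3 h libraries, against 35.1, 29.7, 50.2 and 25.7 CPM in propyzamide unstimulated libraries. With vehicle it had 15.6, 21.3, 13.1 and 35.3 CPM at 3 h, against 31.4, 47.3, 31.2 and 22.1 CPM unstimulated. Egr1 thus separated narrowly with propyzamide and overlapped with vehicle. As CPM of named protein-coding counts it overlapped with propyzamide too, with a highest 3 h library of 395 against a lowest unstimulated library of 362, and so did Ier2, with 167 against 126.

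Junb, a Jun protein that can restrain Jun, kept a wide and overlapping range. It had 92.2, 96.4, 2.06 and 65.9 CPM in propyzamide 3 h libraries, against 58.4, 74.7, 120 and 113 CPM in propyzamide unstimulated libraries. With vehicle it had 98.6, 66.2, 31.5 and 116 CPM at 3 h, against 61.1, 113, 40.0 and 98.2 CPM unstimulated. Nr4a1, the receptor signalling reporter, was at 39.7 ± 24.6 CPM in propyzamide 3 h libraries, against 53.6 ± 14.3 CPM in propyzamide unstimulated libraries (SD, n = 4 each). The propyzamide 3 h libraries had 60.9, 47.45, 4.12 and 46.3 CPM, with 4.12 in the shallowest. Outside the shallowest library they lay within the propyzamide unstimulated range of 38.7 to 71.9 CPM. With vehicle, Nr4a1 was at 46.0 ± 29.6 CPM at 3 h, against 55.1 ± 26.6 CPM unstimulated (SD, n = 4 each). As TMM-normalized CPM, no 3 h library exceeded the highest unstimulated library of its treatment for Nr4a1. This depended on the scaling. As CPM of named protein-coding counts the highest Nr4a1 value at 3 h was 1382 with vehicle, against 1248 unstimulated. With propyzamide it was 962 at 3 h, against 849 unstimulated. Fosb was too sparse to place: its counts in vehicle 3 h libraries were 1, 2, 1 and 18, against 9, 13, 8 and 22 in vehicle unstimulated libraries.

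In edgeR the adjusted p in the mean over both treatments was 0.0776 for Jun, 0.0953 for Fos and 0.148 for Egr1, against unadjusted p of 0.00259, 0.00362 and 0.00928. These 3 members had an unadjusted p under 0.05, a rule that 15.3% of all genes met, and 2.29% of genes were called. DESeq2 called Fos (adjusted p = 0.0232) and Jun (adjusted p = 0.0212), and limma-trend on log2(TPM + 1) called none. With propyzamide alone, 0 of 9 were called and 0.711% of genes were, while Fos, Fosb, Jun and Egr1 had an unadjusted p under 0.05, met by 13.4% of genes. Without the shallowest library the unadjusted p was 0.0556 for Fos, 0.103 for Fosb, 0.041 for Jun and 0.0461 for Egr1 in edgeR. With vehicle alone, 0 of 9 were called and 0.29% of genes were, with Fos at -0.91 ± 0.46 and Jun at -0.81 ± 0.42 (log2, SE). DESeq2 and limma-trend called none in either treatment alone. Without the shallowest library the mean over both treatments gave Fos at -0.86 (adjusted p = 0.119), Jun at -0.86 (adjusted p = 0.139) and Egr1 at -0.82 (adjusted p = 0.24) in edgeR. Leaving out the deepest library as well gave Fos at -0.88 with an adjusted p of 0.0488 in edgeR. Leaving out propyzamide 3 h replicate 1 instead gave Jun at -1.16 with an adjusted p of 0.0421 in edgeR.

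The 3 h comparison with vehicle lies within one i5 index, while the one with propyzamide crosses indexes. In an additive fit with the index as a term, Fos was at -0.86, Jun at -0.63 and Egr1 at -0.59 in the mean over both treatments, none was called, and 2 of 9 genes were above 0. Within a stage the groups differ in index only at 3 h, where index and treatment go together. The index term of that fit therefore cannot be told apart from a treatment difference at 3 h. That term called 0 of 3799 genes, and the shifted estimates are not read as corrected for index. With propyzamide alone, index and stimulation cannot be told apart.

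**Figure D3:**
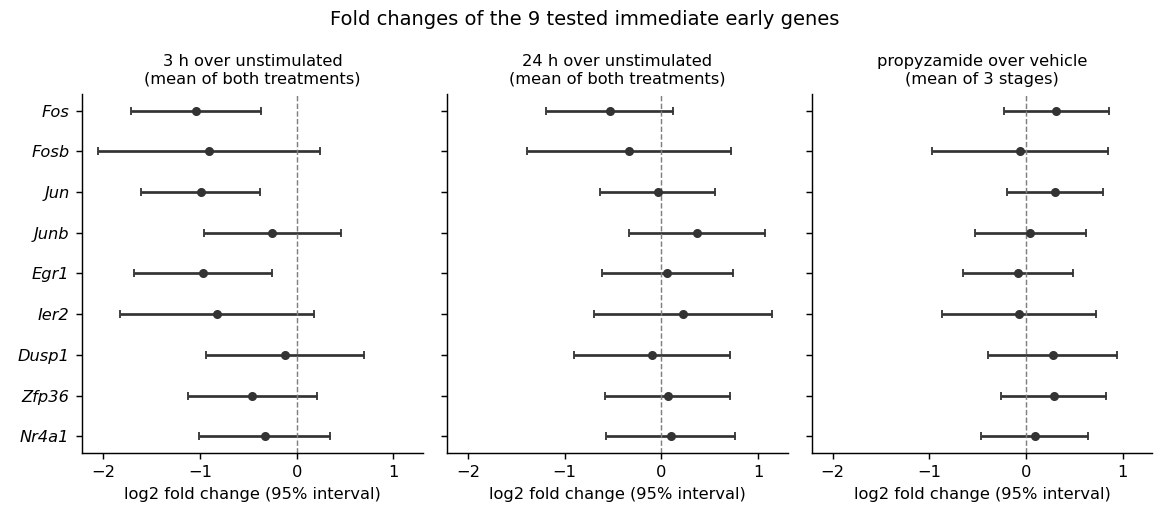
Log2 fold changes of the 9 tested genes with 95% intervals from edgeR, for 3 h over unstimulated and 24 h over unstimulated (means of both treatments) and for propyzamide over vehicle (mean of 3 stages). All 9 estimates lie below 0 at 3 h, led by Fos at -1.04 (with the index as a term, 2 of 9 were above 0). At 24 h 5 of 9 lie above 0 (8 of 9 with the index as a term), and for propyzamide over vehicle 6 of 9 do (9 of 9 with it). The index term cannot be told apart from a treatment difference at 3 h.

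At 24 h no immediate early gene was called against unstimulated libraries. In the mean over both treatments 5 of 9 log2 fold changes were above 0, with a median of 0.06 against -0.01 over all genes tested, and 0 of 9 were called in edgeR, DESeq2 or limma-trend while 2.37% of genes were called in edgeR. Junb was at 0.37 ± 0.34 and Fos at -0.53 ± 0.32 (log2, SE), the estimates furthest from 0 in each direction. Fos had 27.7, 56.0, 118 and 65.4 CPM in propyzamide 24 h libraries and 66.2, 37.3, 52.5 and 27.5 CPM in vehicle 24 h libraries. Junb had 78.2, 135, 124 and 123 CPM in propyzamide 24 h libraries and 104, 95.6, 113 and 103 CPM in vehicle 24 h libraries. Both genes overlapped their unstimulated libraries. Within a treatment, 0 of 9 were called with propyzamide, where 0.079% of genes were, and 0 of 9 with vehicle, where 0.421% were. The same was true in DESeq2 and limma-trend, and no member had an unadjusted p under 0.05 in these 3 comparisons. Every 24 h group carries the second index and every unstimulated group the first. In the additive fit with the index as a term, 8 of 9 were above 0 with a median of 0.82, Fos was at -0.17 and Junb at 0.82 for 24 h over unstimulated, and none was called. The index term of that fit rests on the 3 h stage, so these estimates are not read as corrected for index. No direction is therefore given for 24 h over unstimulated.

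The balance of Junb against Fos differed between stages. The ratio of Junb counts to Fos counts needs no scaling between libraries. It was chosen after the values were seen, so it is given as a description, and since counts are not per length only its change between libraries is read. The ratio was 0.833, 1.11, 0.911 and 1.22 in propyzamide unstimulated libraries, 1.6, 1.55, 0.5 and 1.87 in propyzamide 3 h libraries and 2.82, 2.42, 1.05 and 1.87 in propyzamide 24 h libraries. It was 1.07, 1.13, 0.69 and 1.26 in vehicle unstimulated libraries, 3.56, 1.89, 0.857 and 2.09 in vehicle 3 h libraries and 1.57, 2.56, 2.15 and 3.75 in vehicle 24 h libraries. All 4 vehicle 24 h libraries lay above all 8 unstimulated libraries, and so did 3 of the 4 propyzamide 24 h libraries. The exception was the deepest library, with 3977 Junb and 3781 Fos counts. The value of 0.5 in the shallowest library rests on 1 Junb and 2 Fos counts. Every 24 h group carries the second i5 index and every unstimulated group the first, so stage and index cannot be told apart here. How many other pairs of genes separate in this way was not counted. The ratio of Jun to Fos had a median of 1.12 in propyzamide 24 h libraries, against 0.553 in propyzamide unstimulated libraries, and of 0.78 in vehicle 24 h libraries, against 0.645 in vehicle unstimulated libraries.

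**Figure D4:**
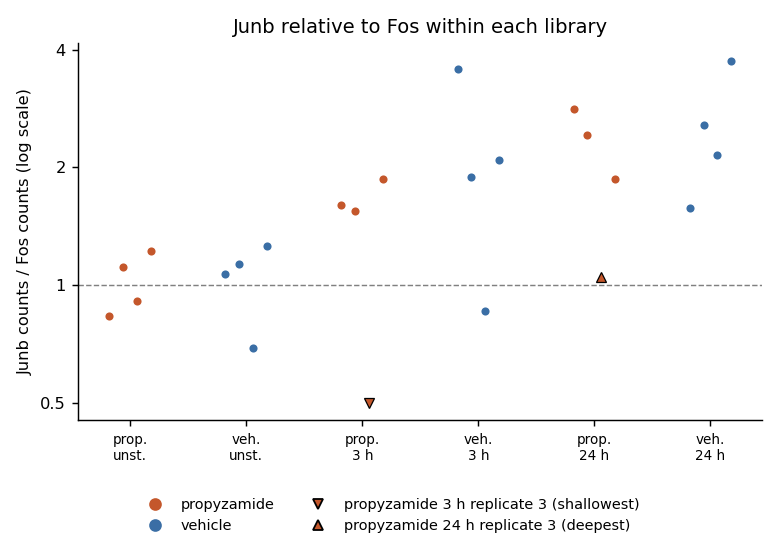
Junb counts divided by Fos counts in each library, on a log scale, by group (prop., propyzamide; veh., vehicle; unst., unstimulated), with the shallowest and deepest libraries as triangles and equal counts as a dashed line. The 8 unstimulated libraries lie between 0.69 and 1.26, and the 4 vehicle 24 h libraries between 1.57 and 3.75.

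Between the stimulated stages, members were called with propyzamide. At 24 h against 3 h with propyzamide, Jun was higher by 1.53 ± 0.43 (adjusted p = 0.0247, edgeR) and Egr1 by 1.45 ± 0.50 (log2, SE, adjusted p = 0.0468, edgeR). Jun had 34.2, 78.6, 77.4 and 65.4 CPM at 24 h, against 37.7, 31.1, 6.17 and 11.8 CPM at 3 h. Egr1 had 11.4, 34.3, 61.9 and 42.6 CPM at 24 h, against 15.2, 23.7, 2.06 and 14.1 CPM at 3 h. Both genes overlapped between the stages through propyzamide 24 h replicate 1. All 9 estimates were above 0, with a median of 1.01 against 0.15 over all genes tested and 0.54 over the protein-coding genes tested.

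These 2 calls of 9 stand beside 15.2% of all genes called, and 8.61% called higher, in the same comparison. Jun, Egr1 and Zfp36 had an unadjusted p under 0.05, met by 34.1% of genes. In the same comparison 5 of 7 tested B cell markers and 2 of 4 tested T cell markers were called higher, and their part in the calls of Jun and Egr1 was not tested. Both calls were lost when single libraries were left out. Without the shallowest library Jun was at 1.20 (adjusted p = 0.0774) and Egr1 at 1.07 (adjusted p = 0.161) in edgeR. Jun also lost its call without propyzamide 3 h replicate 4, propyzamide 24 h replicate 2 or propyzamide 24 h replicate 4, and Egr1 in 23 of 24 fits that left out 1 library. The scaling moved this comparison: the median of all genes shifted by 0.34 under RLE normalization and by -0.48 when fitted on named protein-coding genes. Under RLE, Jun and Egr1 stayed called and Zfp36 was called too (1.49, adjusted p = 0.0284, edgeR). DESeq2 called these 3 genes as well, with Jun at 1.89 (adjusted p = 0.00101), Egr1 at 1.85 (adjusted p = 0.00537) and Zfp36 at 1.49 (adjusted p = 0.0118). Limma-trend called Jun, and on named protein-coding genes Jun was at 1.06 (adjusted p = 0.123, edgeR). On named protein-coding genes without the shallowest and deepest libraries, 6 of 9 estimates were above 0, with a median of 0.04. With vehicle, 24 h against 3 h, 0 of 9 members and 0% of genes were called in edgeR. No member had an unadjusted p under 0.05, and DESeq2 and limma-trend called none. There Jun was at 0.38 ± 0.43 and Egr1 at 0.62 ± 0.49 (log2, SE). The comparison with vehicle crosses i5 indexes, while the one with propyzamide lies within a single index.

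No immediate early gene was called between propyzamide and vehicle. In the mean over the 3 stages 0 of 9 members and 0% of genes were called, and the 9 estimates lay between -0.09 for Egr1 and 0.31 for Fos. Between 4 and 9 of the 9 were above 0 depending on the scaling, so no common direction is given. The 95% interval of the difference was -0.23 to 0.85 for Fos, -0.53 to 0.62 for Junb, -0.20 to 0.79 for Jun and -0.46 to 0.65 for Nr4a1 (log2). These intervals rest on the spread between libraries, and differences within them remain compatible with the data. At each stage taken alone, 0 of 9 members and 0% of genes were called, and DESeq2 and limma-trend called none. At 3 h the treatments carry different i5 indexes, so treatment and index cannot be told apart at that stage.

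At 24 h Jun had 34.2, 78.6, 77.4 and 65.4 CPM in propyzamide libraries, against 40.3, 29.9, 40.0 and 22.4 CPM in vehicle libraries. This was a difference of 0.95 ± 0.42 (log2, SE, unadjusted p = 0.0309 and adjusted p = 0.486, edgeR). Jun was the 1 member with an unadjusted p under 0.05 there, and 10.2% of genes had one. The groups overlapped through propyzamide 24 h replicate 1. Dusp1, the MAP kinase phosphatase, was at 1.01 ± 0.57 and Zfp36 at 0.83 ± 0.46 in the same comparison (log2, SE), and neither was called. In unstimulated libraries the estimates ran from -0.04 for Nr4a1 to 0.54 for Fosb, and at 3 h from -1.02 for Fosb to 0.07 for Fos. The estimate of Fosb at 3 h rested on vehicle 3 h replicate 4 and was 1.11 without it. The interaction of propyzamide and anti-CD3, which asks whether the 3 h or the 24 h change differs between treatments, called 0 of 9 members and 0% of genes at each time, and DESeq2 and limma-trend called none. For Jun the interaction was -0.37 ± 0.60 at 3 h and 0.79 ± 0.58 at 24 h (log2, SE). Vehicle 3 h and propyzamide 3 h libraries carry different i5 indexes. The 3 h interaction therefore cannot be told apart from the index. No member had an unadjusted p under 0.05 in the interactions, in the mean over the stages, or between treatments in unstimulated or 3 h libraries.

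Other genes of the immediate early class were mostly too low to test. Of 18 further transcription factors of the AP-1, Egr, Nr4a and Klf families and related factors, 5 passed the filter and 0 were called in any comparison. Atf3, a stress-induced ATF protein, was at -1.28 ± 0.41 at 3 h and -1.09 ± 0.40 at 24 h over unstimulated in the mean of both treatments (log2, SE, adjusted p = 0.102 and 0.135, edgeR). Myc was at 0.54 ± 0.44 at 3 h in the same comparison. Of 23 feedback and effector genes 11 passed, and 3 were called, all higher at 24 h than at 3 h with propyzamide. These were Btg2, an antiproliferative factor (1.63 ± 0.50, adjusted p = 0.0324), Rgs2, a regulator of G protein signalling (1.71 ± 0.55, adjusted p = 0.0372), and Sik1, a salt-inducible kinase (1.99 ± 0.69, log2, SE, adjusted p = 0.0483, edgeR). In that comparison 15.2% of all genes were called and 8.61% called higher, and these 3 calls were not checked under the other settings. Cd69, an early activation marker of lymphocytes named after its values were seen, was at -0.05 ± 0.36 at 3 h and 0.22 ± 0.36 at 24 h over unstimulated in the mean of both treatments (log2, SE). Of 20 upstream kinases and factors 3 passed (Map2k1, Map2k2 and Mapk8) and 0 were called. Of 10 messages known to be cleared by tristetraprolin 3 passed and 0 were called. Among them, Cxcl2, a neutrophil chemokine, was at 1.27 ± 0.51 at 3 h (log2, SE, adjusted p = 0.207, edgeR).

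The genes closest to the summed pattern of the members over the 6 groups depended on the shallowest library. Likeness was the root mean square difference between log2 group means, each centred, over 6 groups and 1067 named protein-coding genes, whose median difference was 0.507. With all 24 libraries the closest were Actg1 (0.0831), a cytoskeletal actin, Sdha (0.105), a subunit of succinate dehydrogenase, Atp6v0c (0.105), of the vacuolar proton pump, Cs (0.106), citrate synthase, and Atp5b (0.128), of ATP synthase. Of the members Nr4a1 lay closest to the sum (0.112) and Ier2 farthest (0.678). The lowest point of the summed pattern was propyzamide 3 h, at -0.90 from the mean of the groups with the shallowest library and -0.20 without it (log2). Without it, Actg1 stayed closest (0.0613), but it was the 1 gene common to both sets of 5. The other 4 were then Ncstn (0.0956), Herpud1 (0.101), Chchd2 (0.109) and Hook2 (0.111), while Sdha ranked 28, Atp6v0c 134, Cs 9 and Atp5b 15 of the 1067 genes.

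Cell type markers and chaperones differed between groups. Sums are given as CPM of named protein-coding counts, and log2 fold changes come from the edgeR fit with TMM. T cell markers summed to 603 to 1383 in propyzamide 24 h libraries, against 369 to 520 in propyzamide unstimulated libraries, and to 652 to 925 in vehicle 24 h libraries, against 307 to 547 in vehicle unstimulated libraries. At 24 h over unstimulated, in the mean of both treatments, 4 of 4 tested T cell markers were above 0 and 0 were called. Of B cell markers 7 of 7 were above 0 and 0 were called. Called lower there were 2 of 4 plasma cell and 2 of 7 intestinal epithelium markers, beside 0.921% of all genes. Intestinal epithelium markers summed to 288 to 642 in vehicle 24 h libraries, against 3384 to 4350 in vehicle unstimulated libraries. In propyzamide 24 h libraries they summed to 352 to 6668, against 3168 to 9178 in propyzamide unstimulated libraries, so these groups overlapped. Without the deepest library the propyzamide 24 h range was 352 to 1293. At 3 h over unstimulated, in the mean of both treatments, markers of several cell types had estimates below 0 beside those of the members. Of tested B cell markers 0 of 7 were above 0, with a median of -1.003 (log2), and Ighd was called lower (-1.56 ± 0.39, log2, SE, adjusted p = 0.0224, edgeR). Of plasma cell markers 0 of 4 were above 0 with a median of -1.12, of macrophage and monocyte markers 0 of 4 with -1.06, and of intestinal epithelium markers 0 of 7 with -0.82 (log2). Of T cell markers 2 of 4 were above 0, and Lck was called lower (-1.69 ± 0.39, log2, SE, adjusted p = 0.0131, edgeR). Granulocyte markers were above 0 for 3 of 3, and 2 were called higher (S100a8 and S100a9). Of all genes tested, 0.447% were called higher and 1.84% lower at 3 h in that mean. Granulocyte markers summed to 322 to 1181 in vehicle 3 h libraries, against 112 to 302 in vehicle unstimulated libraries. In propyzamide 3 h libraries they summed to 55.7 to 937, against 26.3 to 190 in propyzamide unstimulated libraries. Without the shallowest library the propyzamide 3 h range was 577 to 937. Of 10 heat shock genes, which respond to stress and to tissue handling as immediate early genes do, 8 passed the filter. At 24 h against 3 h with propyzamide 7 of the 8 were called higher, with Hspa8 at 1.92 ± 0.43 (adjusted p = 0.00853) and Hspa1a at 3.60 ± 0.94 (log2, SE, adjusted p = 0.0187, edgeR). Of all genes tested, 8.61% were called higher in that comparison. At 3 h over unstimulated, in the mean of both treatments, 0 of the 8 were called and Dnajb1 was at -1.93 ± 0.58 (log2, SE, adjusted p = 0.0745, edgeR). The part of cell composition and of handling in the levels of the immediate early genes was not tested.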

How the data were processed

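RNA-seq libraries were made with SMART-seq2, per the labels' protocols, and quantified with kallisto on GRCm38, per the submitters' processing notes; no version is given in the sources used here. The deposited files hold estimated counts (expected counts, not scaled for depth) for 142604 transcripts, per the file headers. They also hold deposited TPM values, which the authors' quantifier scales by length and depth. Estimated counts were summed to 55401 genes by the gene identifier in each transcript name and rounded. Groups followed the labels, which number no replicates, so replicate numbers follow record order. Of the library pairs, 0 held identical counts.

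Counts were tested with edgeR 4.0.16 (R 4.3.3): filterByExpr, TMM, 1 coefficient per group over 24 libraries, quasi-likelihood F test, and Benjamini-Hochberg adjustment over 3799 genes. The biological coefficient of variation was 46.4%. Alternatives were RLE, no filter, protein-coding genes only, DESeq2 1.42.0, limma-trend (limma 3.58.1) on log2(TPM + 1), fits of 2 groups, an index term, and leaving out each library. Settings with named protein-coding genes only, or without the shallowest and deepest libraries (for likeness of patterns, the shallowest), were chosen after seeing the data. The script was tested on simulated data. The text names all members, genes of the other lists that were called or had the smallest p, and the 5 closest patterns among genes with a mean log2 CPM of at least 3. Members and lists were chosen with earlier results of these data known. Intervals cover the spread between libraries, and reads were not collapsed by molecular identifiers. Sequences came from RefSeq (GRCm38.p6) and GENCODE M21 transcripts.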

Additional observations from a re-analysis of the deposited data

Results flagged for a closer look

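Of 65 sets of 4 libraries with a spread, 4 held a library far from the other 3, and chance flags about 1 in 20 sets. Fosb in vehicle 3 h replicate 4 was at 22.7 CPM, against 1.31 to 1.73 CPM in the other vehicle 3 h libraries. Jund in the same library was at 6.31 CPM, against 0 in the others, and rests on 5 counts. That library also had the highest level of its group for 8 of the 9 tested genes. Jun in vehicle unstimulated replicate 2 was at 66.6 CPM, against 36.9 to 39.7 CPM in the others. Ier2 in vehicle 24 h replicate 4 was at 8.60 CPM, against 20.6 to 22.5 CPM in the others, and rests on 5 counts. The cause was not tested.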

How the results depend on the processing

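No paired analysis was possible because the labels carry no replicate numbers. Over 14 comparisons, no value of a called gene turned its sign under any alternative. For 24 h against 3 h with propyzamide, the 2 called genes became 0 without a filter, 1 with protein-coding genes only, 1 with limma-trend and 0 with only the 2 groups compared, while RLE and DESeq2 each called 3. Without the shallowest and the deepest library, with named protein-coding genes only, or with both, 0 were called. Leaving out each library in turn gave 0 to 2. For 3 h against unstimulated in the mean of both treatments, where 0 were called, DESeq2 called 2, the fit without the shallowest and deepest libraries called 1, and leaving out each library gave 0 to 1. For 24 h against unstimulated in the mean of both treatments, where 0 were called, 1 gene (Fos) was called at -0.91 (adjusted p = 0.00942, edgeR) when both changes were made together. In the other 11 comparisons 0 genes were called in every setting run. Of 4129 single-gene values recomputed, 39 lost a call and 7 gained one, 84 stayed uncalled but moved by more than 1 SE, and 3999 kept their call or moved by less. Among the values not called, 246 changed sign. Filtering was repeated in each fit with a library left out, which tested 3893 to 4623 genes, so the number of genes adjusted over differs there. Otherwise the cause was not tested. Depth limits Jund and Fosb most, with 21 and 174 counts outside the deepest library.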
